A study of Mus musculus with 2 samples.

Results

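The genes of the major histocompatibility complex (MHC, called H2 in the mouse) and of antigen processing were examined in cultures grown from mammary basal cells with or without M2-like macrophages. They were chosen by name from the count table as every gene whose symbol begins with H2- together with B2m, Tap1, Tap2, Tapbp, Nlrc5, Ciita, Cd74, Psmb8, Psmb9 and Psmb10. This gave 55 of 49492 genes, of which 50 lie on chromosome 17. They comprised 32 class I heavy chain genes, 11 genes of the class II pathway and the genes that supply or regulate these molecules. H2-Ke6 carries an H2 name only for its position: it encodes a hydroxysteroid dehydrogenase (Hsd17b8), so it is reported apart.

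Basal cells, the outer myoepithelial layer that also holds mammary stem cells, were sorted by FACS from the glands of adult female wild-type mice. They were grown in a 3D matrix gel. Cells with the leukocyte, endothelial or erythroid markers CD45, CD31 or TER119 were removed by the sort. The ctrl group was cultured alone and without treatment. The M2 group shared its wells with bone marrow-derived macrophages of C57/B6 mice. The macrophages had been polarized with Il-4 and Il-13 and sat in transwell inserts with a porous membrane. Co-culture of this kind usually took 11 to 14 days. The culture time of the ctrl library was not given in the sources used here. The groups may therefore differ in culture time, and its part in the differences below was not tested. Each group holds 1 library, so no difference below has a replicate check, and each test compares those libraries and not the conditions. The cultures were started from primary cells sorted as basal epithelium. The strain of the mice that gave the basal cells was not given in the sources used here, and the number of mice behind a library was not given either.

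MHC class I molecules are made of a polymorphic heavy chain and β2-microglobulin, and they show peptides of the cell's own proteins to cytotoxic T cells on nearly all nucleated cells. The peptides are cut by the proteasome, carried into the endoplasmic reticulum by the transporter Tap1-Tap2 and loaded with the help of tapasin (Tapbp). Class II molecules pair an α and a β chain, are guarded by the invariant chain (Cd74) and show peptides from the endocytic route to helper T cells. They are mostly made by professional antigen-presenting cells, but interferon-γ can induce them in epithelium through the transactivator Ciita, as it induces class I through Nlrc5.

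The ctrl library held 26912610 reads in genes and the M2 library 29413844 reads, and 24415 and 24986 genes had at least 1 read. Genes with at least 10 reads summed over both libraries were tested (19233 genes), and a gene was called at a difference of at least 2-fold and a Benjamini-Hochberg adjusted p under 0.05 in a two-sided exact binomial test of its reads. Log2 differences are M2 over ctrl after scaling to the library sizes, and the ranges beside them are 95% intervals. With 1 library per group, the intervals cover counting error only. No molecular identifiers are stated, so every read was counted as if independent, and the intervals may be too narrow. Basal markers were abundant in both libraries, with 81991 and 68968 reads of Krt14 and 5445 and 6331 of Trp63. Luminal markers were abundant too, with 29888 and 36348 reads of Krt8 and 20919 and 22821 of Epcam. By FACS, the paper found mostly luminal cells in such colonies, with a larger basal share after co-culture. Of the 10 basal markers tested Oxtr was called lower (8324 and 1920 reads) and 0 higher, while at any size 5 were past counting error on each side. Markers of leukocytes and antigen-presenting cells were scarce: 10 of 16 had at most 3 reads in both libraries, and Ptprc, Adgre1, Tyrobp and Fcer1g had 0. Of 10 luminal markers tested Kit, Elf5, Foxa1 and Esr1 were called lower in M2 and Prom1 higher. Krt8 (0.21) and Epcam (0.056) were not called, and 3 of the 10 had a positive and 7 a negative difference. Of 9 fibroblast markers tested Col1a2, Col3a1 and Pdgfrb were called lower and Dcn higher. Pdgfra (0.37) and Postn (-0.09) were not called, and 2 of the 9 had a positive and 7 a negative difference. Over all genes tested, 8.16% were called higher and 6.55% lower. Of 3 endothelial markers tested Pecam1 was called higher and Cdh5 and Kdr lower, the last 2 with at most 11 reads. In such bulk samples fewer cells of a type and less RNA per cell cannot be told apart, and the part of these shifts in the MHC differences was not tested.

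To show what the class I genes share before their reads, stretches upstream of the start sites are printed for a classical gene, for 3 genes of the H2-Q family and for the light chain gene. They come from RefSeq on GRCm38.p6, which had an upstream window for 38 of the 55 genes. Capitals mark 4 sets of letters searched on both strands: GGGGATTCCC, the κB-type letters that NF-κB binds, AGTTTCACTT, the core of an interferon-stimulated response element, TGNTGAC, the X2-type letters, and ATTGG, the CCAAT or Y box read from its other strand. These letters were chosen after the sequences were seen, the longer ones as they stand in the H2-K1 window. The stretches are written 5′ to 3′ on the strand of the gene, for H2-K1 chr17:34000348-34000468 (minus strand), for H2-Q4 chr17:35379437-35379571, for H2-Q6 chr17:35424670-35424804, for H2-Q7 chr17:35439014-35439148 and for B2m chr2:122147509-122147643 (all plus strand).
H2-K1: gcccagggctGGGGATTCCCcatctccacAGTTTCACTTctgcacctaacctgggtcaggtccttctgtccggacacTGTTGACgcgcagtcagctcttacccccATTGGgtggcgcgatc
H2-Q4: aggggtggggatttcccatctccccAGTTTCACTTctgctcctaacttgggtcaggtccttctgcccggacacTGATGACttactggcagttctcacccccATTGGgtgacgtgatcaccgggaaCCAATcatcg
H2-Q6: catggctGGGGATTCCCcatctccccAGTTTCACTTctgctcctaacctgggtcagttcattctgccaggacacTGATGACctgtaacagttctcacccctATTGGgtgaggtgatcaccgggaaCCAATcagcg
H2-Q7: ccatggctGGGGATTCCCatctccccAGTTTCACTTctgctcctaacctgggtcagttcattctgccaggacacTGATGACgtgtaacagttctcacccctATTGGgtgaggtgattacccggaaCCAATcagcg
B2m: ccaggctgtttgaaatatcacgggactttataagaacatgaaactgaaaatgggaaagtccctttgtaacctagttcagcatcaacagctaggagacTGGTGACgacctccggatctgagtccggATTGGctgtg

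Within the 250 bases before the start, the κB-type letters were found in 28 of 32851 RefSeq promoter windows (0.0852%) and in 4 of the 38 MHC and antigen processing genes, namely H2-K1, H2-D1, H2-Q6 and H2-Q7. The response element letters were found in 42 windows (0.128%) and in 8 of the 38 genes, which are the same 4 together with H2-Q4, H2-Q10, H2-T22 and H2-T3. The X2-type letters, present in 11.7% of windows, were found in 12 of the 38 genes, and ATTGG, present in 33.8% of windows, in 33. In B2m only the X2-type and CCAAT letters matched, and H2-T23 also lacked both of the rarer sets. Only these exact letters were searched, the rarer sets in the spelling of H2-K1. A gene without a match can thus hold a variant of either element, and variants were not searched. These genes are paralogs whose upstream sequences share descent. A match describes letters and is neither a binding site nor a cause.

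Of the 55 genes, 33 passed the filter on low counts, and 5 of these were called higher in M2 (H2-Ab1, H2-Q6, H2-Q7, H2-T-ps and H2-M2) against 8.16% of all genes tested. None was called lower, against 6.55% of all genes. At any size of difference, 23 of the 33 were past counting error on the higher side and 2 on the lower side, H2-T23 and H2-Ke6, whereas 27.0% and 26.1% of all genes tested were. Most of the differences were thus small, and the median over the 33 genes was 0.57 on the log2 scale, against -0.0032 over all genes tested. A positive difference was seen in 27 of the 33 genes (81.8%) and in 49.7% of all genes. Among the 28 genes with at least 50 reads in 1 library, 4 were called higher and 0 lower, against 7.25% and 5.28% of all such genes, and at any size 22 and 2 were past counting error, against 31.8% and 30.7%. At a 1.5-fold threshold 14 of the 33 tested were higher and 1, H2-Ke6, was lower, against 12.8% and 11.1% of all genes. The 280 other genes that lie between the outermost H2 genes on chromosome 17 (17:33915899-37483552) had a median of 0.0083 over the 141 tested, with 14 called higher and 7 lower.

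**Figure D1:**
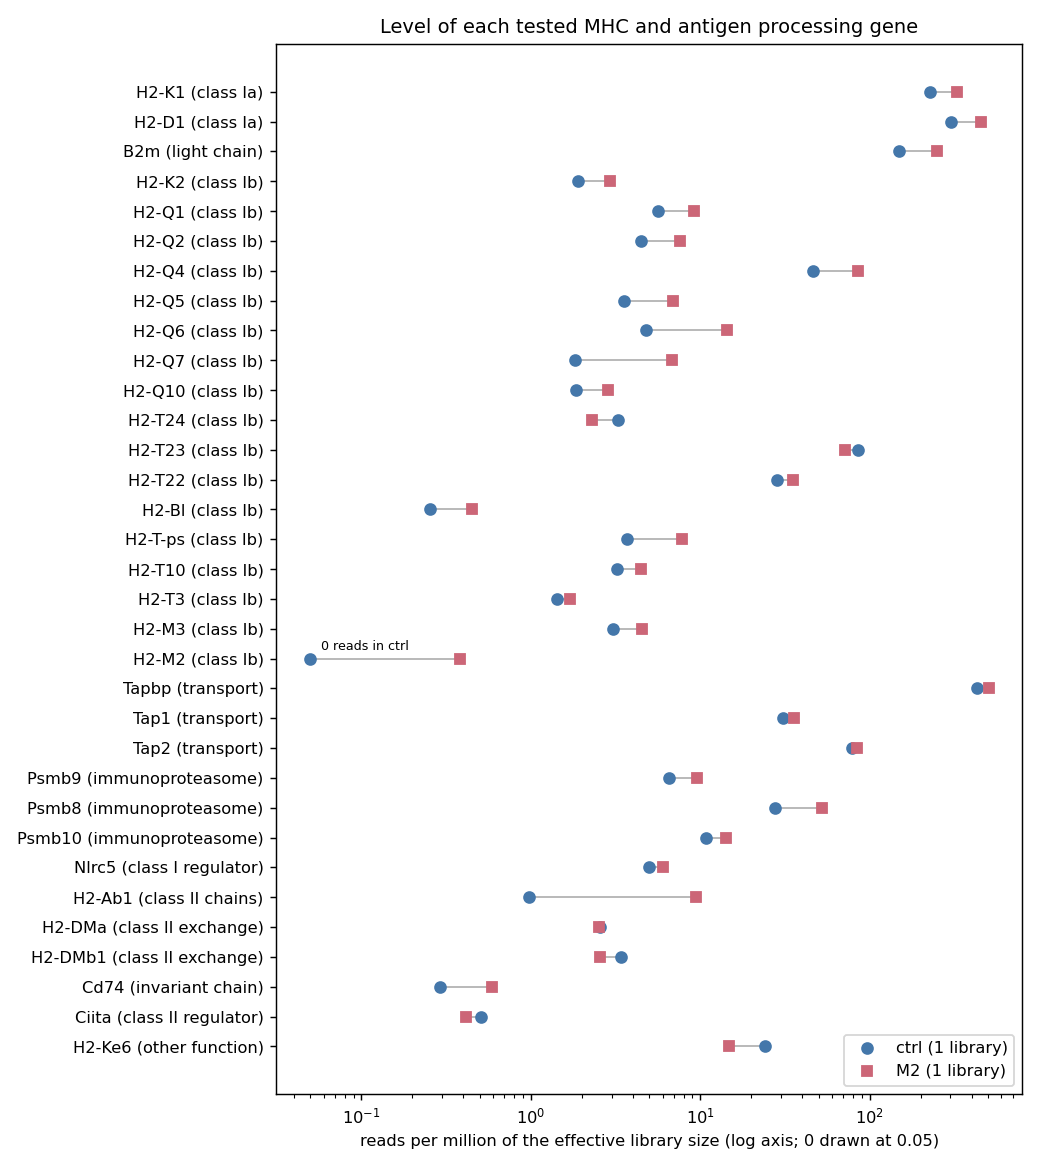
Level of the 33 tested MHC and antigen processing genes in the ctrl library (circles) and the M2 library (squares), in CPM of the effective library size on a log axis, 1 library per group. H2-K1, H2-D1, B2m and Tapbp lie at the high end in both libraries, and the longest gaps are those of H2-Ab1, H2-Q6, H2-Q7 and H2-M2, the last with 0 reads in ctrl drawn at 0.05.

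The classical class I (class Ia) heavy chains H2-K1 and H2-D1, which present most peptides to CD8 T cells, were abundant in both libraries and higher in M2 past counting error, short of 2-fold. H2-K1 (chr17:33996017-34000333) had 6295 reads in ctrl and 9521 in M2, or 229 and 319 TPM (counts scaled here to gene length and to the library total), and the log2 difference was 0.53 (0.48 to 0.57). H2-D1 (chr17:35262730-35267499) had 8258 and 13042 reads, or 303 and 443 TPM, with a difference of 0.59 (0.55 to 0.63). The difference of H2-D1 exceeded that of H2-K1 by 0.062 (0.0013 to 0.12), so the pair moved nearly together. Of the H2-K1 transcripts 0.957% of the 100-base stretches, and 3.59% of those of H2-D1, also occur in transcripts of another gene, but at 50 bases the shares were 9.63% and 12.8%, and the read length was not given in the sources used here.

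B2m (chr2:122147686-122153083), the light chain of class I molecules, had 4092 reads in ctrl and 7171 in M2. Its level was 451 and 730 TPM and its log2 difference 0.74 (0.68 to 0.80), past counting error but short of 2-fold. Per length, B2m stood at 0.847 of the summed class Ia heavy chains in ctrl and at 0.958 in M2, and its difference exceeded theirs by 0.18 (0.11 to 0.24). No 100-base stretch of B2m is shared with another gene.

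Among the nonclassical (class Ib) genes, the H2-Q family, which lies just beyond H2-D1, held the largest class I differences backed by many reads. H2-Q6 and H2-Q7 encode Qa-2, a membrane-anchored class I molecule. H2-Q6 (chr17:35424850-35430055) had 131 reads in ctrl and 418 in M2, or 5.95 and 17.5 TPM, a log2 difference of 1.60 (1.32 to 1.90). H2-Q7 (chr17:35439155-35443773) had 50 and 198 reads, or 1.11 and 4.06 TPM, a difference of 1.89 (1.46 to 2.39). Both were called higher. Of the 100-base stretches, 13.0% of those of H2-Q6 and 12.0% of those of H2-Q7 occur in other transcripts, in part in each other (35% and 26.5% at 50 bases). Their sum is less exposed to how reads were split within this pair. It went from 181 to 616 reads with a difference of 1.70 (1.46 to 1.94). Sharing with other genes remains in the sum: at 50 bases H2-Q6 shared 12.3% with H2-Q4, and H2-Q7 shared 14.0% with H2-Q10.

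H2-Q4 was the most abundant H2-Q gene, with 1269 reads in ctrl and 2462 in M2, or 46.3 and 83.0 TPM, and a log2 difference of 0.89 (0.79 to 0.99). The antisense gene Gm11131 overlaps 19.1% of H2-Q4 and went from 348 to 705 reads. The use of strand in the counting was not given in the sources used here, so reads of the overlap cannot be told apart. H2-Q1 went from 155 to 265 reads with a difference of 0.70, H2-Q2 from 123 to 219 with 0.76, H2-Q5, annotated as a polymorphic pseudogene, from 97 to 199 with 0.96, and H2-Q10, a class I gene known for its secretion by the liver, from 51 to 82 with 0.61. Every H2-Q gene that was tested therefore had a positive difference, and the 8 genes of the family summed to 1877 reads in ctrl and 3843 in M2. This sum differed by 0.96 (0.88 to 1.04) on the log2 scale, which exceeded the class Ia sum by 0.40 (0.32 to 0.49). The 4 H2-Q genes whose upstream windows held the response element letters printed above were H2-Q4, H2-Q6, H2-Q7 and H2-Q10, with differences from 0.61 to 1.89, while the window of H2-Q2 lacked them and its difference was 0.76. H2-Q1 and H2-Q5 had no window. Over all tested class I heavy chains with a window, the 8 with these letters ranged from 0.25 to 1.89. The 5 without them ranged from -0.26 to 3.52, the last being H2-M2 through its pseudocount, so the ranges overlapped.

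The H2-T genes did not move in 1 direction. H2-T23 (chr17:36029773-36032855) encodes Qa-1, which shows leader peptides of other class I chains to the NKG2A receptor of natural killer cells. It had 2340 reads in ctrl and 2054 in M2, or 76.7 and 62.2 TPM, and a log2 difference of -0.26 (-0.34 to -0.17), past counting error but short of 2-fold. Its difference lay below that of the class Ia sum by 0.82 (-0.91 to -0.73), and its level was 0.144 of that sum in ctrl and 0.0816 in M2. H2-T24 had 90 and 66 reads and a log2 difference of -0.51 (-1.0 to -0.042), which was not past counting error after adjustment over all genes.

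H2-T22 and H2-T10, whose products are known ligands of γδ T cells, had 781 and 1011 reads with a difference of 0.30 (0.17 to 0.44) and 89 and 129 reads with 0.46 (0.065 to 0.87). H2-T10 is annotated as a polymorphic pseudogene. Of the 100-base stretches of H2-T22, 24.0% also occur in the antisense gene A930015D03Rik and 6.92% in H2-T10, and of those of H2-T10, 22.5% occur in the antisense gene BC023719 and 7.06% in H2-T22. Reads of the antisense overlaps cannot be told apart from theirs, and A930015D03Rik had 89 and 114 reads and BC023719 1 and 2. H2-T3, the thymus leukemia antigen, had 39 and 49 reads, too few to show a difference of its size. H2-T-ps (chr17:36109234-36111658), a pseudogene by its annotation, was called higher with 101 and 224 reads and a difference of 1.07 (0.73 to 1.43). Its call was lost once edgeR assumed a coefficient of variation of 0.2 between libraries, and 29.4% of its 50-base stretches are shared, 18% with H2-T23. The 6 H2-T genes together had 3440 reads in ctrl against 3533 in M2, differing by -0.031 (-0.10 to 0.037), and H2-T23 held 2340 and 2054 of these reads.

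H2-M3, which binds N-formylated peptides of bacteria and mitochondria, had 84 and 131 reads and a log2 difference of 0.57 (0.17 to 0.98). H2-M2 (chr17:37480851-37483552) had 0 reads in ctrl and 11 in M2. Against the 3 reads that a count of 0 allows, its level was at least 3.49-fold higher in M2, and it was called. H2-K2, a transcribed pseudogene beside H2-K1, had 52 and 85 reads with a difference of 0.63 (0.13 to 1.17), and the polymorphic pseudogene H2-Bl had 7 and 13. The other 12 H2-M genes and H2-Q3 had at most 3 reads in either library, which corresponds to at most 0.109 CPM (counts scaled to the library size) in ctrl and 0.104 in M2.

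The heavy chains as a whole comprised 19 tested genes, of which 4 were called higher (8.16% of all genes tested), 0 were called lower (6.55% of all) and 17 had a positive difference (49.7% of all), with a median of 0.63. Their reads summed to 20020 in ctrl and 30184 in M2, or 729 and 1030 TPM. The log2 difference of this sum was 0.52 (0.50 to 0.55). H2-K1 and H2-D1 held 14553 and 22563 of these reads, so the sum mostly reports the classical pair. Class Ib alone differed by 0.41 (0.36 to 0.46), and class Ib minus class Ia was -0.15 (-0.21 to -0.095). H2-T23 set this direction: without it, an exclusion chosen after its value was seen, class Ib went from 3127 to 5567 reads (0.76, 0.70 to 0.83) and class Ib minus class Ia was 0.20 (0.13 to 0.27).

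**Figure D2:**
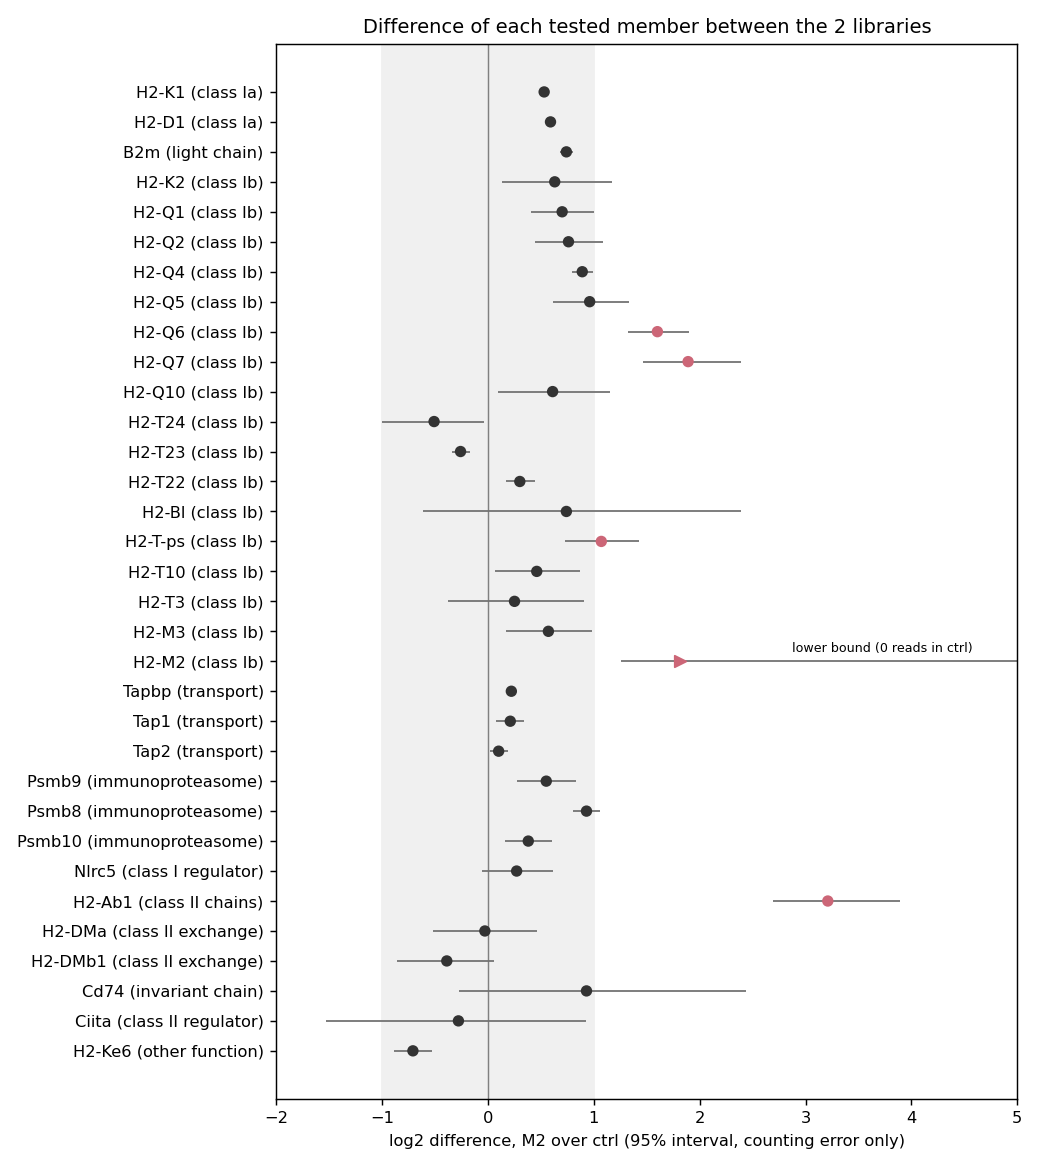
Log2 difference (M2 over ctrl) of the 33 tested genes with 95% intervals that cover counting error only, grouped by role, where red marks the 5 called genes and the shaded band is a difference under 2-fold. Most class I route genes lie right of 0 within the band, and H2-T23, H2-T24 and H2-Ke6 lie left of 0 with intervals that exclude 0. H2-M2 is drawn at 1.81, its difference with ctrl set to 3 reads and M2 taken as exact, and its interval begins at 1.26.

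The genes that carry peptides to class I and load them were higher in M2 by smaller amounts than the heavy chains H2-K1 and H2-D1, and none of them was called. Tapbp, the bridge between the transporter and the heavy chain, had 11873 reads in ctrl and 14517 in M2, or 341 and 385 TPM, a log2 difference of 0.22 (0.19 to 0.26). The antisense gene Gm19412 overlaps 20.2% of Tapbp and had 2322 and 2776 reads. Tap1 went from 852 to 1031 reads with a difference of 0.21 (0.074 to 0.34), and Tap2, of which the antisense gene Gm15821 overlaps 14.1%, from 2167 to 2441 with 0.10 (0.019 to 0.19). The transporter sum thus differed by 0.13 (0.062 to 0.20), which lay below the class Ia sum by 0.43 (-0.51 to -0.35).

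Psmb8, Psmb9 and Psmb10 are the catalytic subunits of the immunoproteasome, which take the places of Psmb5, Psmb6 and Psmb7 and shift the cuts towards peptides that fit class I. Psmb8 had 758 reads in ctrl and 1516 in M2, or 26.2 and 48.5 TPM, and a log2 difference of 0.93 (0.80 to 1.06), while Gm20496, which overlaps 6.8% of Psmb8 in antisense, had 516 and 986. Psmb9 had 181 and 278 reads with 0.55 (0.27 to 0.83), and Psmb10 (chr8:105935735-105938444) had 299 and 408 with 0.38 (0.16 to 0.60). All 3 were past counting error on the higher side and short of 2-fold, with Psmb8 nearest to it. Together they went from 1238 to 2202 reads (0.76, 0.66 to 0.86), and their constitutive counterparts went from 3956 to 5293 reads (0.35, 0.29 to 0.41). The immunoproteasome sum exceeded the constitutive sum by 0.41 (0.29 to 0.53), and its level per length was 0.221 of the constitutive level in ctrl and 0.273 in M2. By pairs, Psmb8 exceeded Psmb5 by 0.39 (0.21 to 0.56), whereas the intervals of Psmb9 over Psmb6 (0.20, -0.10 to 0.50) and of Psmb10 over Psmb7 (0.14, -0.093 to 0.38) held 0.

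Nlrc5 (chr8:94434356-94527272), the transactivator of class I genes, had 138 reads in ctrl against 175 in M2, and its log2 difference of 0.27 had an interval from -0.057 to 0.61. A change of Nlrc5 was therefore not detectable at this depth, while one above 0.61 lay outside the interval.

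Class II was carried by few reads, and 1 gene set its difference. H2-Ab1 (chr17:34263209-34269418), the β chain of the I-A molecule, had 27 reads in ctrl and 271 in M2. Its level rose from 1.56 to 14.5 TPM, with a log2 difference of 3.21 (2.69 to 3.89), the largest of the 32 tested genes with reads in both libraries. None of its 100-base stretches occurs in another gene and no annotated gene overlaps it. H2-Aa, which encodes the α chain that I-A needs, had 1 read in ctrl and 0 in M2. H2-Eb1 had 2 and 4 reads, H2-Eb2 had 0 in both, and the pseudogene H2-Ea-ps had 1 and 0. The class II chains other than H2-Ab1 thus summed to 4 reads in each library, and a partner for the H2-Ab1 chain was not detectable at this depth. RefSeq gave no upstream window for H2-Ab1, so none is shown. GRCm38 is the C57BL/6 sequence, and how reads of another H2 haplotype would have been assigned was not tested.

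**Figure D3:**
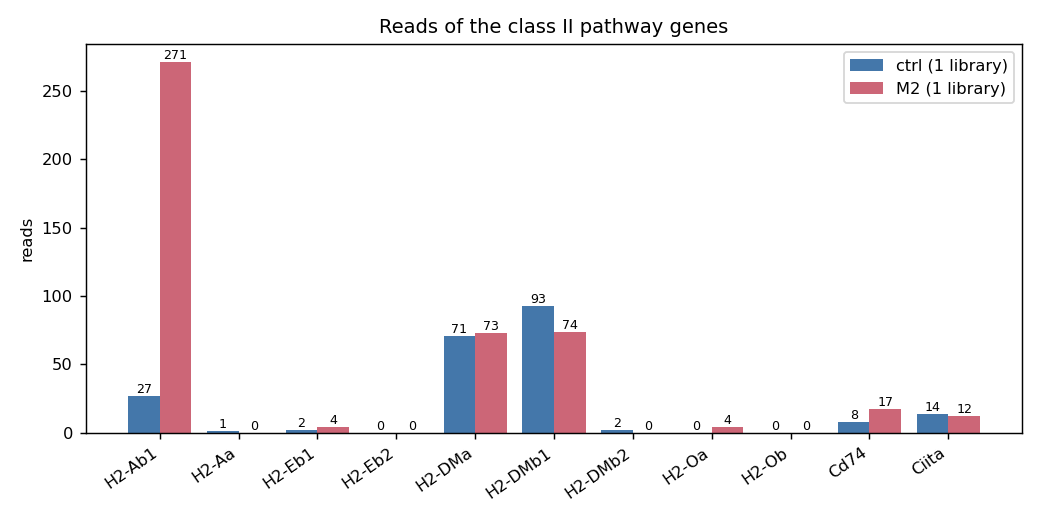
Reads (not scaled) of the class II chains, the peptide exchange genes, the invariant chain Cd74 and the transactivator Ciita in the ctrl library (blue) and the M2 library (red), 1 library per group, with the count printed on each bar. H2-Ab1 stands at 27 and 271 reads while its partner H2-Aa has 1 and 0, and the remaining genes hold at most 93 reads.

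The genes that load and regulate class II showed no difference past counting error. H2-DMa and H2-DMb1 form H2-DM, which exchanges the invariant chain fragment for peptide. H2-DMa had 71 reads in ctrl and 73 in M2 (-0.03, -0.52 to 0.46), and H2-DMb1 had 93 and 74 (-0.39, -0.86 to 0.057). H2-DMb2, which shares sequence with H2-DMb1, had 2 and 0 reads, and of the chains of H2-O, which restrains H2-DM, H2-Oa had 0 and 4 reads and H2-Ob had 0 in both. Cd74 had 8 and 17 reads, with a difference of 0.93 whose interval ran from -0.27 to 2.44. Ciita (chr16:10488178-10527564) had 14 and 12 reads (-0.28, -1.53 to 0.93). The class II pseudogenes H2-Pa and H2-Pb had at most 1 read.

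The class II pathway summed to 205 reads in ctrl against 443 in M2, a log2 difference of 1.04 (0.80 to 1.29). The class I sum differed by less, and class I minus class II was -0.52 (-0.77 to -0.28). Without H2-Ab1, an exclusion chosen after its value was seen, class II went from 178 to 172 reads (-0.12, -0.43 to 0.19), and class I then exceeded it by 0.64 (0.33 to 0.95). The comparison of both classes thus turned its direction on a single gene. Per length, class I stood at 57.9 times the level of class II in ctrl and at 42.2 times in M2. By genes, 25 of 27 tested on the class I route (heavy chains, B2m, transport and loading, immunoproteasome and Nlrc5) had a positive difference, with a median of 0.59. On the class II route this held for 2 of 5, H2-Ab1 and Cd74, with a median of -0.03.

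The leukocyte and antigen-presenting cell markers summed to 287 reads in ctrl against 293 in M2, a log2 difference of -0.039 (-0.28 to 0.20), while H2-Ab1 differed by 3.21. Most of those reads were of Cd68, with 170 and 165, and of Csf1r, with 94 and 92. The B cell marker Cd79a had 8 and 16 reads and Itgam had 3 and 9. Lyz2, abundant in macrophages, had 3 reads in ctrl against 1 in M2, and Ctss, the protease that trims the invariant chain in antigen-presenting cells, had 5 and 2.

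H2-Ke6 (chr17:34026033-34028060), which has no part in antigen presentation, went from 668 to 428 reads with a log2 difference of -0.71 (-0.89 to -0.53). The gene model Gm20427 covers 85.4% of it on the same strand and had 3730 and 4629 reads, and 61.6% of its 100-base stretches are shared, so its count is uncertain.

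The other genes of the pathway were read from lists of their function. Of all genes tested, 8.16% were called higher and 6.55% lower. All 14 constitutive subunits of the proteasome core had a positive difference but none was called, with a median of 0.23. The chaperones and trimming genes of class I (Canx, Calr, Pdia3, Erap1 and Tapbpl) ranged from 0.22 to 0.43, with none called. Of the PA28 activator, Psme1 and Psme2, which pair in the interferon-inducible form, differed by 0.41 and 0.51 and Psme3, the nuclear form, by -0.22. None of the 7 genes of the factors that bind the X and Y boxes of MHC promoters was called, and Rfx5, a subunit of RFX, had 900 and 872 reads (-0.11, -0.25 to 0.021). Of the 5 class II compartment genes tested none was called, and their median was 0.025.

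Of 10 tested genes of the interferon-γ route to MHC genes, 2 were called higher and 0 lower, against 8.16% and 6.55% of all genes tested. The median was 0.56, and 8 had a positive difference (49.7% of all genes). The 2 with a negative difference were Irf2 (-0.39, -0.47 to -0.31) and Irf9 (-0.43, -0.55 to -0.32). Ifngr2, a chain of the receptor, had 804 reads in ctrl and 1768 in M2 (1.07, 0.95 to 1.19), and Ptpn2, a phosphatase that turns the signal off, had 811 and 2112 (1.31, 1.19 to 1.43). Irf1, a transcription factor that acts on class I promoters, had 534 and 1069 reads with 0.93 (0.78 to 1.08). Of the type I and III interferon receptor list none of 6 was called, against the same shares of all genes, with a median of 0.27.

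**Figure D4:**
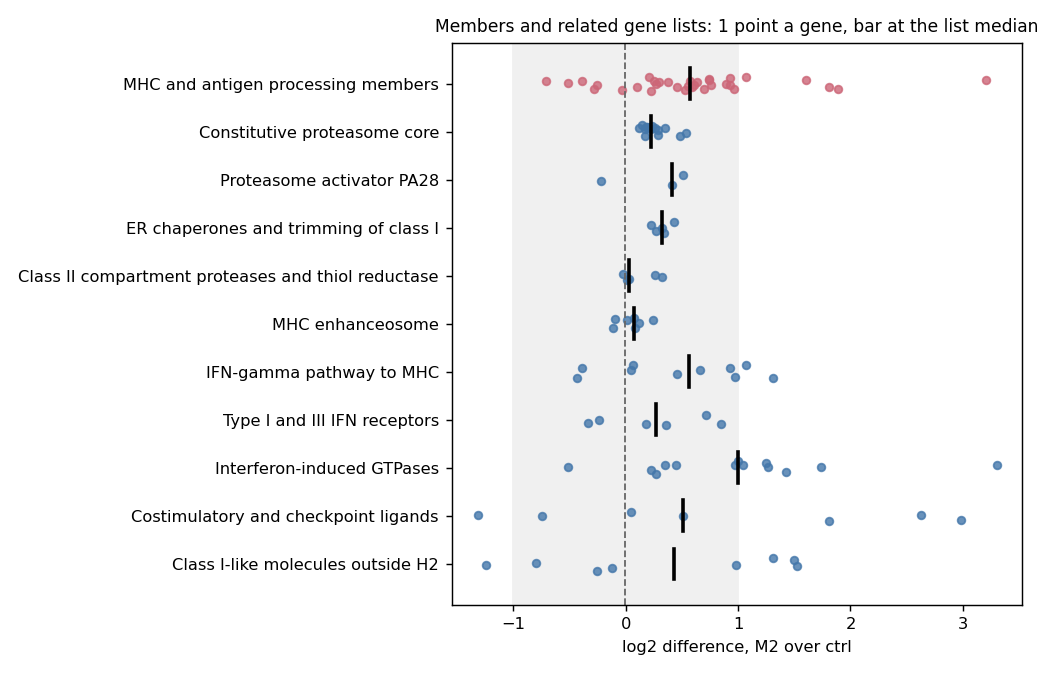
Log2 difference (M2 over ctrl) of each tested gene, 1 point a gene, for the MHC and antigen processing genes (red, H2-M2 with ctrl set to 3 reads) and for related gene lists (blue), with a black bar at each median and a dashed line at the median of all genes. The median of the MHC and antigen processing genes is 0.57, that of the constitutive proteasome core is 0.23 and that of the interferon-γ route is 0.56.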

How the data were processed

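The authors deposited raw read counts per gene, with gene coordinates and lengths, for 1 ctrl and 1 M2 library. Builds GRCm38 and mm10 are named in the submitters' processing notes; the aligner, counter, annotation, read filters and use of strand were not given in the sources used here. The word microarray in the series text does not match the values, which are sequencing counts. All 55 genes were found at the same place in GENCODE M21, 39 with the same ends. Spreadsheet dates had replaced 26 gene names.

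The genes and lists were chosen with earlier results of these data known. Libraries were scaled by TMM (edgeR 4.0.16, R 4.3.3; factors 1.02 for ctrl and 0.98 for M2). Log2 differences use a pseudocount of 1. The exact binomial test and Clopper-Pearson intervals were computed with scipy 1.17.1 in Python 3.11.15 and checked on simulated data. The criteria of that check covered counting error alone, not variation between libraries. Differences between sums have conditional intervals of the odds ratio and need no library scaling. For a fold value, genes at 0 reads in 1 library were set to 3 reads there, with the reads of the other library taken as exact.

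Genes with at least 50 reads in 1 library, the transactivators, Cd74 and the class II chains were named, the rest given by counts. Of each other pathway list, called genes with at least 50 reads in 1 library (at most 6) and Irf1 and Rfx5 were named, and 1 further gene of the rule is not reported here. Of each cell marker list, up to 6 genes with the most reads could be named; other names were chosen after their values were seen. Alternatives covered scaling, filters, pseudocounts, fold thresholds, edgeR's exactTest with an assumed coefficient of variation, and the genes summed.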

Additional observations from a re-analysis of the deposited data

How the results depend on the processing

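No paired analysis was possible because ctrl and M2 have 1 library apiece, and for the same reason no library could be left out and DESeq2 was not run. Size factors of the DESeq2 type (RLE) were computed with edgeR as another scaling. The calls H2-Ab1, H2-Q6, H2-Q7, H2-T-ps and H2-M2 were the same 5 under each of 3 other scalings, with at least 1 read summed, with pseudocounts of 0.5 and 3 and with an assumed coefficient of variation of 0.1. With 0.2 H2-T-ps was lost, which left 4, and with 0.4 only 1, H2-Ab1, remained. With at least 1 CPM in both libraries 3 were called, since H2-Ab1 and H2-M2 were under that filter in ctrl. At 1.5-fold 14 genes were called higher and 1 lower, H2-Ke6, and at 4-fold 2 were called higher, H2-Ab1 and H2-M2. The latter was called only through its pseudocount, since with ctrl set to 3 reads its difference was 3.49-fold. Without the genes that share over 10% of their 100-base stretches, chosen after seeing the data, 3 were called. Over all genes tested, calls were 797 higher and 583 lower with 1 CPM, 964 and 691 with a coefficient of 0.2, 175 and 130 with 0.4, 2462 and 2143 at 1.5-fold, and 616 and 494 at 4-fold. The class I sum was 0.46 when scaled by total reads, 0.56 for class Ia only, 0.41 for class Ib only and 0.56 with B2m. The class II sum was 3.08 for the chains only, and class Ia minus those chains was -2.52. Without H2-Ab1, also chosen after seeing the data, the class II sum was -0.12 and class I minus class II was 0.64, both reversed. Class Ib minus class Ia reversed to 0.20 without H2-T23, likewise chosen after seeing the data. Of 31 named genes recomputed, none changed sign where it had a value, and of the 27 with a value in each setting 14 kept their side of the threshold in each. Depth limits what can be seen of the 20 genes with at most 3 reads in both libraries, and of class II besides H2-Ab1, where none had over 93 reads.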

Other observations

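Other genes that interferons induce, or that act beside MHC molecules at the cell surface, were also read. Of 13 interferon-induced GTPases, which defend cells against intracellular microbes, 5 were called higher in M2 and 0 lower, against 8.16% and 6.55% of all genes tested, and 12 had a positive log2 difference (49.7% of all genes), with a median of 1.0. Gbp2 had 537 reads in ctrl and 1337 in M2 (1.25, 1.10 to 1.39), Ifi47 had 90 and 317 (1.74, 1.41 to 2.10), Gbp6 had 103 and 262 (1.27, 0.94 to 1.62) and Tgtp2 had 25 and 55 (1.04, 0.36 to 1.81). Gbp4 was called from 2 and 30 reads. Iigp1 was the exception, with 338 and 248 reads and a difference of -0.51 (-0.76 to -0.28). The GTPases are close paralogs, and how their reads were split was not tested.

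Of 7 tested costimulatory and checkpoint ligands, 3 were called higher (8.16% of all genes tested) and 1 lower (6.55% of all). Cd274, which encodes PD-L1, had 44 reads in ctrl and 165 in M2 (1.81, 1.35 to 2.35), and Cd40, the receptor through which T cells license antigen-presenting cells, had 9 and 82 (2.98, 2.12 to 4.30). Cd80 was called from 1 and 12 reads. Vtcn1, an inhibitory ligand of the B7 family, was lower, with 1834 and 772 reads (-1.32, -1.44 to -1.2). Of 8 tested class I-like genes outside the H2 complex, 2 were called higher and 0 lower, against the same shares of all genes. Procr, the protein C receptor, had 68 and 204 reads (1.5, 1.11 to 1.93), and Ulbp1, a ligand of NKG2D, had 39 and 103 (1.31, 0.79 to 1.90). Cd1d1, which presents lipids to NKT cells, had 270 and 559 reads and a difference of 0.98 (0.77 to 1.2), short of the 2-fold threshold. Fcgrt, the neonatal Fc receptor chain that pairs with B2m, had 375 and 225 reads and a difference of -0.80 (-1.05 to -0.56).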
